A study of Mus musculus with 6 samples.

Results

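Ephrins with their Eph receptors, netrins with DCC, neogenin and the UNC5 receptors, and Slits with their Robo receptors are the axon guidance systems described here in Bcl11b/Ctip2 mutant granule cells of the dentate gyrus (DG). The members were the genes whose symbols belong to these families, together with the netrin-Gs and the RGM proteins (repulsive guidance molecules). The rule itself uses no measured value, but the families were chosen with earlier results of these data known. They came to 41 of the 19938 genes measured, counted by 1 probe set each, and 45 probe sets carried 1 of their symbols alone. The probe set of Ntng2 carries several gene symbols and was not counted, and Ephb2 was not analysed here.

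The 3 mutant and 3 control samples were granule cell layers of the DG, cut by laser capture microdissection, whose RNA was hybridised to 1-colour Affymetrix mouse whole-transcript arrays. Mutant mice were Bcl11b flox/flox and carried tetO-Cre with CaMKIIα-tTA, a tet-off line in which the tetracycline-controlled transactivator is driven by a promoter of forebrain neurons, so that Cre is not restricted to granule cells. Doxycycline, which holds this system off, was supplied with the water the mice drank, starting before birth and ending when they were 2 months old, and the layer was cut 4 weeks after induction. Neither the labels nor the methods state which of these alleles the controls carried, or whether an array stands for 1 animal, and the p-values therefore cover only the spread among the 6 samples.

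Ephrins are ligands held at the cell surface, the A class by a lipid anchor and the B class by a membrane-spanning segment, and they bind Eph receptor tyrosine kinases on neighbouring cells. Netrins are laminin-related proteins. Netrin-1 attracts axons through DCC and repels them through UNC5 receptors, while neogenin, the relative of DCC, also binds the RGMs. Slits are secreted repellents read by Robo receptors. In the hippocampus these systems are known for steering axons to their layers, mossy fibers included, and Ephs and ephrins also for shaping spines and synapses in the adult.

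The values are log2 expression values, on which a difference of 1 is a factor of 2. Between genes they are not comparable, because probes differ in brightness. Bcl11b, the targeted gene, had 9.03, 8.68 and 8.82 in the mutant arrays and 10.56, 10.4 and 10.3 in the control arrays. It was lower in every mutant array, with a change of -1.58 ± 0.10 (limma, change ± SE, adjusted p = 2.56e-05). The position of its probes with respect to the deletion is unknown here. Array medians over all probe sets lay between 6.29 and 6.36. The leading principal component held 70.4% of the variance and separated the mutants (-18.6 to -18.4) from the controls (15.8 to 20.4), and the next (14.5%) set control array 1 apart at 16.3, with the others between -11.8 and 1.85. Prox1, which defines granule cells, lay at 11.57 to 11.65 in mutants and at 11.45 to 11.81 in controls. Of 14 granule cell markers 8 were lower and 1 higher (64.3% in all, against 15.2% of all genes), and 5 did not pass, Prox1 among them. Their mean level was 10.54 to 10.6 in mutants and 11.15 to 11.19 in controls. The list includes C1ql2 (-3.29) and Dsp (-0.81), which the study describes as direct targets of Bcl11b, so its mean is not a gauge of granule cell content alone. In bulk tissue, fewer cells of a type and less RNA per cell cannot be told apart.

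Of the 41 guidance genes, 8 were higher and 7 were lower in the mutant at an adjusted p of 0.05, and 26 missed that threshold. The higher genes were Ntn5, Robo1, Dcc, Epha3, Neo1, Ephb1, Efnb1 and Epha6, and the lower ones were Efna1, Slit1, Ntng1, Epha10, Efnb2, Unc5c and Unc5a. These 15 were 36.6% of the members, against 15.2% of all genes tested. Because the families were chosen with earlier results of these data known, this and the shares below are a description and not a test. The higher genes made 19.5% of the members, against 9.23% of all genes, and the lower genes made 17.1%, against 5.93%. After centring of the arrays on their medians over the genes tested, 7 members were higher and 7 lower. The higher share of all genes that passed was then 44.2%, against 60.9% without centring. In 18 members (43.9%) the 3 mutant and 3 control values did not overlap, against 31.6% of all genes. The direction was divided, with a median change of -0.004 over the members and -0.0027 over all genes, while the median size of the change was 0.11 in the members and 0.08 in all genes.

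Part of that difference in share went with signal level. All 15 genes that passed were among the 30 members at or above the median level of all genes (7.06). There 25% of all genes passed, against 50% of the members. The level of a gene is its mean over mutant and control arrays together, so a change can itself carry a gene over 7.06. Ntn5 had a mean of 6.6 in controls and 8.48 in mutants, and Epha10 had 7.01 in mutants and 7.58 in controls. The other genes that passed had both group means above 7.06. The split by level is thus not independent of the change. Of the 11 members below the median level 0 passed, and 0 had an unadjusted p under 0.05 by limma or by the methods' test. Of all 3023 genes that passed, 2491 were likewise at or above that level, so 0 of 11 is not read as a result about the dim members. Among the brighter genes the median size of the change was 0.27 in the members and 0.13 in all genes.

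**Figure D1:**
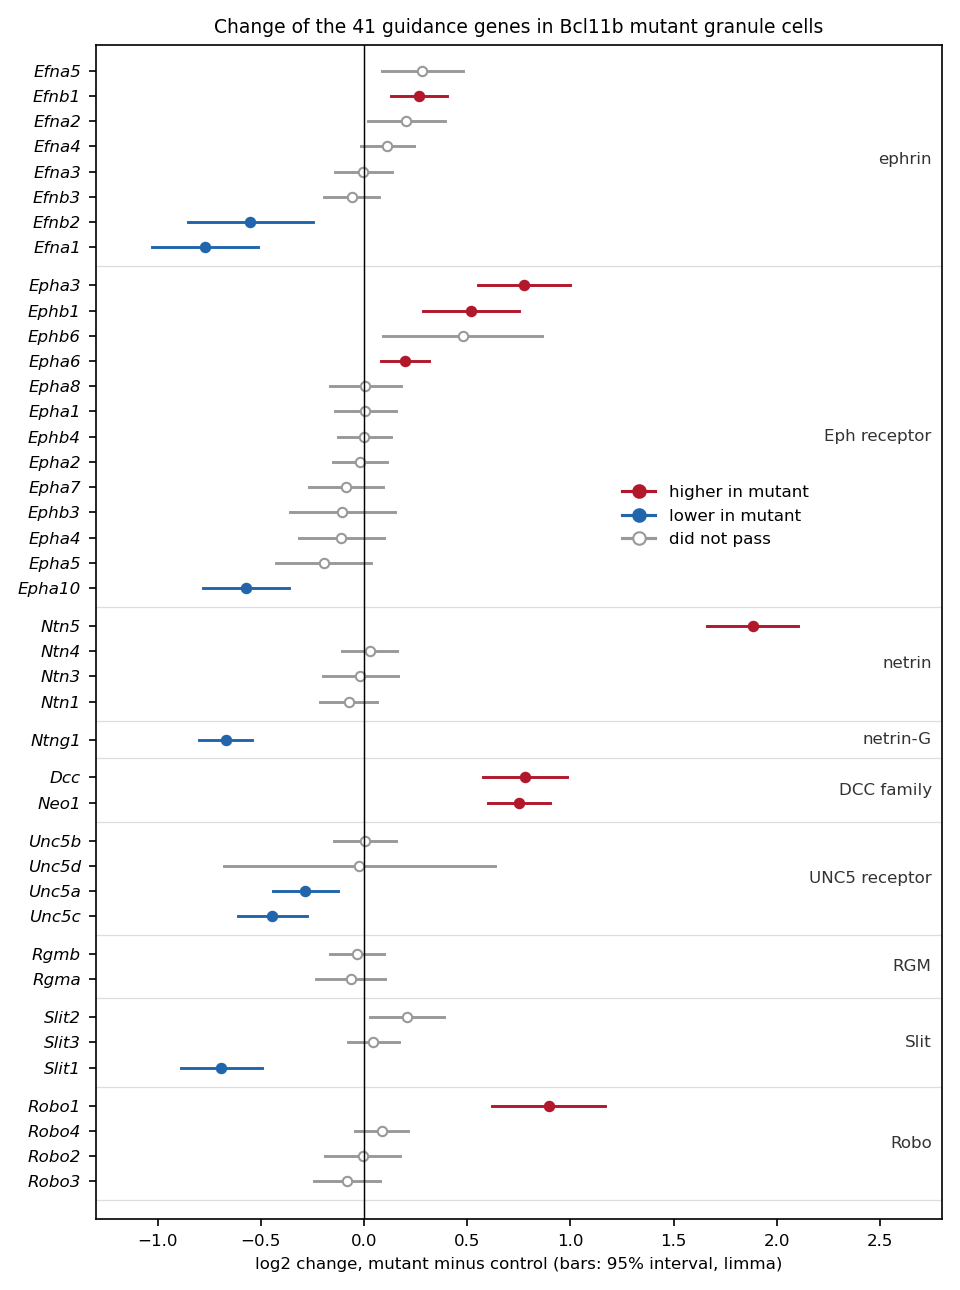
Change of each of the 41 guidance genes on the log2 scale, mutant minus control, with its 95% interval from limma over 3 arrays a group; red marks genes higher and blue genes lower in the mutant at an adjusted p of 0.05, and open grey circles those that did not pass. Ntn5 stands farthest to the right at 1.88, the other genes that passed lie between -0.77 and 0.89, and every subfamily other than the RGMs holds at least 1 that passed.

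The netrin system held the largest single change. Ntn5 codes for netrin-5, a secreted member of the family. It had 8.47, 8.33 and 8.65 in the mutant arrays and 6.52, 6.76 and 6.51 in the control arrays, so that the nearest arrays of the groups lay 1.56 apart. The mean was 8.48 ± 0.16 in mutants and 6.60 ± 0.14 in controls (SD, n = 3 each), a 3.69-fold higher level (log2 change 1.88 ± 0.10, change ± SE; adjusted p = 9.41e-06). None of the other netrins passed. Ntn1, the classical chemoattractant, had a difference of -0.07 (95% interval -0.21 to 0.06), Ntn3 by -0.02 (-0.20 to 0.16) and Ntn4, a netrin of basement membranes, by 0.03 (-0.10 to 0.16). All these netrins were below the median level in these arrays.

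Both DCC family receptors were higher. Dcc, the receptor that mediates attraction by netrin-1, had 9.37, 9.19 and 9.29 in mutants and 8.38, 8.42 and 8.69 in controls. Its lowest mutant value lay 0.49 above its highest control value, and the change was 0.78 ± 0.09 (adjusted p = 5.85e-04, 1.72-fold). Neo1, which codes for neogenin, had 11.16, 11.28 and 11.07 in mutants and 10.48, 10.39 and 10.39 in controls. The groups were again well apart, with means of 11.17 ± 0.10 in mutants and 10.42 ± 0.05 in controls (SD) and a change of 0.75 ± 0.07 (adjusted p = 1.34e-04, 1.68-fold). The RGM ligands of neogenin did not pass (Rgma -0.06, 95% interval -0.23 to 0.10; Rgmb -0.03, -0.16 to 0.10), and 0 of these 2 had an unadjusted p under 0.05 by limma or by the methods' test.

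The region around the start of Ntn5 and that of Neo1 are shown because these were the netrin ligand and the receptor with the smallest p among members whose RefSeq window could be read. Each window runs from 250 bases before to 50 bases after the annotated start, read 5′ to 3′ on the strand of the gene in GRCm38.p6, with each CG dinucleotide in capitals. Ntn5 lies on the plus strand at chr7:45683772-45684071 and Neo1 on the minus strand at chr9:59036392-59036691.
Ntn5: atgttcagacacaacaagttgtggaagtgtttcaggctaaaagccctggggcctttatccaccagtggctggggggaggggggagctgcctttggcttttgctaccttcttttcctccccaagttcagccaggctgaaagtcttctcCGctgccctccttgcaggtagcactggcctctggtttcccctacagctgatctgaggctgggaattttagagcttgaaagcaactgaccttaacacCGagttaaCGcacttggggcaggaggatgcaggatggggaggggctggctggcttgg
Neo1: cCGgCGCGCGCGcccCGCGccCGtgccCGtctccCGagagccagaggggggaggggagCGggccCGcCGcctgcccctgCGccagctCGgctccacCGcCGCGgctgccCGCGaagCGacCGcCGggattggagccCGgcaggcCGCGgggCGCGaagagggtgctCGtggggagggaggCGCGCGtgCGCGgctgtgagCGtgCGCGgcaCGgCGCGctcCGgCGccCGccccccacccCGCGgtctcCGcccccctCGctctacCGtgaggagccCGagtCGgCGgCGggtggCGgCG
The Ntn5 window holds 3 CG dinucleotides and the Neo1 window 54. Over the 42 windows of the 35 members with an entry the median was 21.5, and over all windows of protein-coding genes it was 13. Of all such windows 23.9% hold 3 or fewer, a limit taken from Ntn5 itself after its sequence had been seen, and of the members' windows 4.8%.

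UNC5 receptors, which mediate repulsion by netrin-1, went the other way from the DCC family where they passed. Unc5c had 9.18, 9.19 and 9.1 in mutants and 9.75, 9.52 and 9.52 in controls, a change of -0.44 ± 0.07 (adjusted p = 0.00424). Unc5a had 11.49, 11.54 and 11.46 in mutants and 11.9, 11.78 and 11.66 in controls, a change of -0.29 ± 0.07 (adjusted p = 0.0246). For both, every mutant value was below every control value, although the gap for Unc5a was only 0.12 between the nearest arrays, and its call was lost without any 1 of the mutant arrays or without control array 2 (adjusted p = 0.0578 to 0.0983). Unc5b did not pass (0.00, 95% interval -0.14 to 0.15).

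Unc5d was decided by 1 array. It had 9.75, 9.5 and 9.52 in mutants and 10.43, 9.23 and 9.17 in controls, so control array 1 was the highest of all 6 and the other controls the lowest. The mean was 9.59 ± 0.14 in mutants and 9.61 ± 0.71 in controls (SD), and the change of -0.02 had an interval of -0.68 to 0.63. Without control array 1 the change was 0.39 (limma, adjusted p = 0.00838). A separate probe set of Unc5d showed the same array apart, with 9.44, 9.55 and 9.44 in mutants and 10.15, 9.25 and 9.16 in controls.

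Ntng1 codes for netrin-G1, a lipid-anchored relative of the netrins that does not bind DCC and pairs across the synapse with the adhesion protein NGL-1. It had 9.49, 9.6 and 9.55 in mutants and 10.15, 10.24 and 10.25 in controls. Replicates lay within 0.11 of each other in either group, and the change was -0.67 ± 0.06 (adjusted p = 1.20e-04, a ratio of 0.63). Its other probe set ran the same way, with 7.47, 7.38 and 7.37 in mutants and 7.74, 8.03 and 7.98 in controls (change -0.51, adjusted p = 0.00366 over 21789 probe sets).

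**Figure D2:**
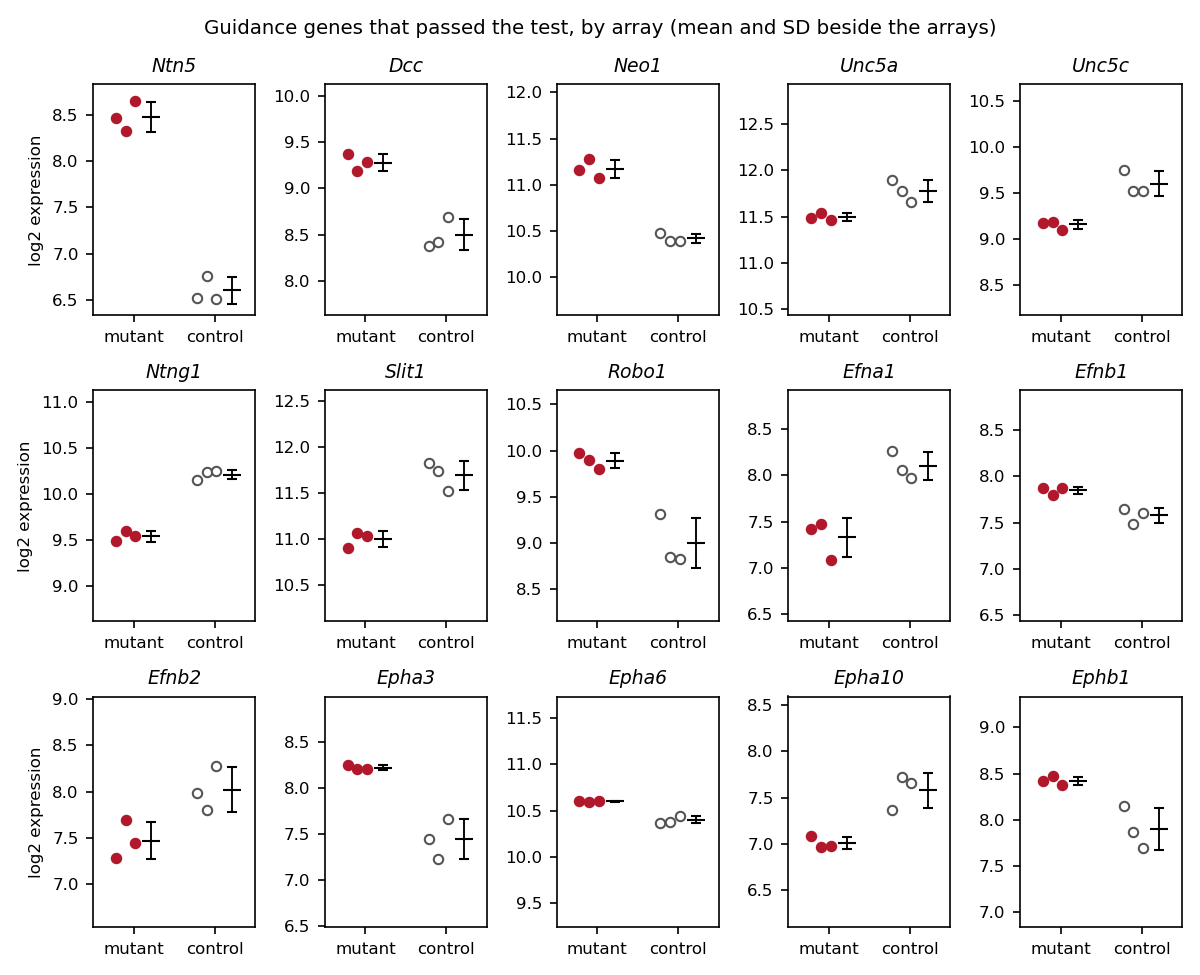
Log2 expression value of each guidance gene that passed the test in each array, mutant arrays left of control arrays in each panel, with the group mean and SD beside them (3 arrays a group); every panel spans the same length of the log2 axis but starts at its own level. In all 15 panels the 3 mutant values and the 3 control values do not overlap, with the widest separation for Ntn5.

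In the Slit and Robo system a ligand was lower and a receptor higher. Slit1 had 10.9, 11.07 and 11.03 in mutants and 11.82, 11.74 and 11.52 in controls. The nearest arrays of the groups were 0.45 apart, and the change was -0.69 ± 0.09 (adjusted p = 9.01e-04, a ratio of 0.62). Slit2 had 7.93, 7.64 and 7.69 in mutants and 7.52, 7.53 and 7.59 in controls, a change of 0.21 ± 0.08 that did not pass (adjusted p = 0.122) although the groups did not overlap. Slit3 had a difference of 0.05 (95% interval -0.08 to 0.17).

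Robo1, a receptor for Slits, had 9.97, 9.9 and 9.8 in mutants and 9.31, 8.85 and 8.83 in controls. Control array 1 was again the highest of its group and still 0.49 below the lowest mutant. The SD was 0.08 in mutants and 0.27 in controls, and the level was 1.86-fold higher (log2 change 0.89 ± 0.12, adjusted p = 0.00142). Robo2, the other main Slit receptor of neurons, had a difference of -0.01 with an interval of -0.19 to 0.18, although Robo1 and Robo2 lie side by side with 0 protein-coding genes between them in the RefSeq annotation. Robo3, which acts at the midline, had a difference of -0.08 (-0.24 to 0.08), and Robo4, a receptor of endothelial cells, by 0.09 (-0.04 to 0.21). The difference between the changes of Robo1 and Robo2 was not tested.

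Among the 8 ephrins, 1 was higher and 2 were lower (37.5% in all, against 15.2% of all genes and 25% of those at or above the median level). Efna1, an A-class ligand also known from blood vessels, had 7.42, 7.48 and 7.08 in mutants and 8.26, 8.06 and 7.97 in controls, a change of -0.77 ± 0.11 (adjusted p = 0.00220, a ratio of 0.59). Efnb2, a B-class ligand of neurons and arteries, had 7.28, 7.69 and 7.44 in mutants and 7.98, 7.8 and 8.28 in controls, a change of -0.55 ± 0.13 (adjusted p = 0.0241). The groups were clearly apart for Efna1, whereas for Efnb2 mutant array 2 came within 0.11 of control array 2. The call of Efnb2 was lost without mutant array 1 (-0.46), mutant array 3 (-0.54) or control array 3 (-0.42), with adjusted p = 0.0987, 0.0876 and 0.0502. Since both ligands are made by vessels as well, the vessel markers were read beside them. Of 11 endothelial genes 1 was higher (Flt1) and 1 lower (Egfl7), which is 18.2%, against 15.2% of all genes. Their mean level was 6.57 to 6.8 in mutants and 6.58 to 6.69 in controls. Of 7 pericyte and smooth muscle genes 1 was higher (Pdgfrb, 14.3% of the list), with a mean level of 6.37 to 6.52 in mutants and 6.3 to 6.45 in controls. Their part in the change of Efna1 and Efnb2 was not tested.

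Efnb1, another B-class ligand, had 7.87, 7.8 and 7.87 in mutants and 7.65, 7.49 and 7.6 in controls, a change of 0.27 ± 0.06 (adjusted p = 0.0178), which did not pass without mutant array 1, mutant array 3 or control array 2 (adjusted p = 0.0703 to 0.0754). Efna5, which steers axons in topographic maps, had 7.95, 8.02 and 7.71 in mutants and 7.64, 7.67 and 7.51 in controls. Its groups were 0.04 apart, and the change of 0.28 ± 0.09 did not pass (adjusted p = 0.0617; without mutant array 3, 0.38, adjusted p = 0.0189). Efna2 had 8.77, 8.9 and 8.81 in mutants and 8.78, 8.61 and 8.47 in controls, so the groups overlapped, and its change of 0.21 ± 0.08 did not pass (adjusted p = 0.141; without control array 1, 0.28, adjusted p = 0.0162).

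The other ephrins did not pass. Efna4 was not overlapping between the groups but its change was 0.11 (95% interval -0.01 to 0.24), that of Efna3 was -0.00 (-0.14 to 0.13), and that of Efnb3, which like the other B-class ephrins can signal back into its own cell, was -0.06 (-0.19 to 0.07). Efna1, Efna3 and Efna4 are neighbours on chromosome 3 with 0 protein-coding genes between them, and of the 3 only Efna1 passed.

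Of the 13 Eph receptors measured, 3 were higher and 1 was lower (30.8% in all, against 15.2% of all genes and 25% of those at or above the median level). Epha3, an A-class receptor known from axon targeting, had 8.25, 8.21 and 8.21 in mutants and 7.45, 7.23 and 7.66 in controls. The mutant arrays were nearly alike and 0.54 above the highest control, and the change was 0.78 ± 0.10 (adjusted p = 0.00100, 1.71-fold). Epha6 had 10.6, 10.59 and 10.6 in mutants and 10.37, 10.38 and 10.44 in controls. This was the smallest change that passed among the members, at 0.20 ± 0.05 (adjusted p = 0.0293), and the call was lost under 9 of 17 other settings, among them centring of the arrays (0.15, adjusted p = 0.0782) and leaving out any mutant array or control array 2 (adjusted p = 0.0862 to 0.0993). Epha3 and Epha6 lie on chromosome 16 with 4 protein-coding genes between them.

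Epha10, an A-class receptor without kinase activity, was the only Eph gene that was lower. It had 7.09, 6.97 and 6.98 in mutants and 7.37, 7.72 and 7.66 in controls, a change of -0.57 ± 0.09 (adjusted p = 0.00342). Its other probe set had 6.97, 6.74 and 7.02 in mutants and 7.47, 7.57 and 7.11 in controls (change -0.47, adjusted p = 0.0355). Both probe sets thus separated the groups, the second by 0.08.

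Ephb1, a B-class receptor known for sorting retinal axons at the optic chiasm, had 8.42, 8.47 and 8.38 in mutants and 8.15, 7.87 and 7.7 in controls on the brighter of its probe sets, a change of 0.52 ± 0.10 (adjusted p = 0.00975). On the dimmer one it had 5.48, 5.58 and 5.4 in mutants and 5.73, 5.66 and 5.6 in controls, a change of -0.18 that did not pass (adjusted p = 0.106). The direction for Ephb1 therefore rests on the brighter probe set, and the mean of both did not pass. Ephb6, a receptor without kinase activity, had 8.96, 8.76 and 8.94 in mutants and 8.82, 8.38 and 8.02 in controls. Its groups overlapped through control array 1 and the change of 0.48 ± 0.17 did not pass (adjusted p = 0.0992), whereas without that array it was 0.68 (adjusted p = 0.00163).

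**Figure D3:**
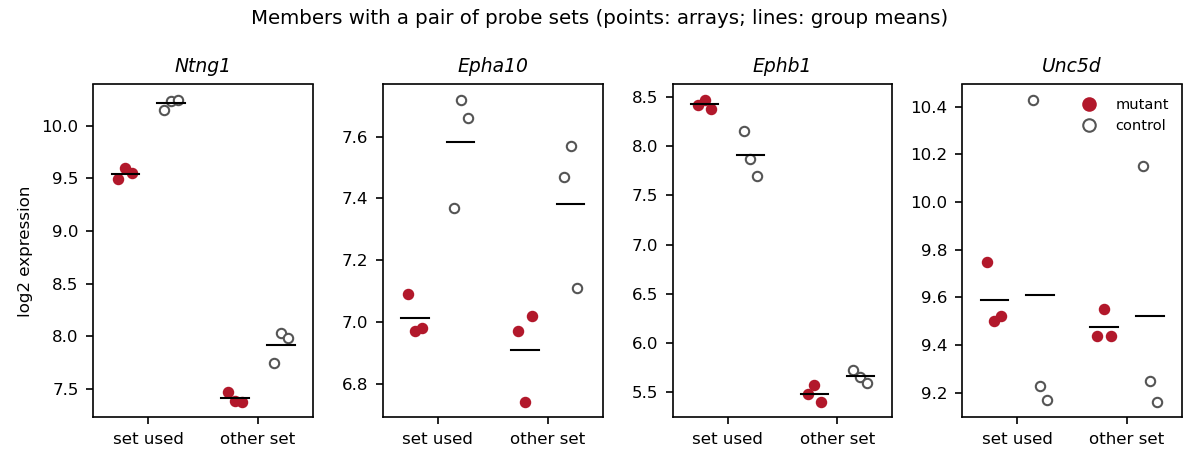
Log2 expression values of the 4 guidance genes measured by 2 probe sets each, mutant arrays (filled) left of control arrays (open), with a line at the group mean and an axis of its own for each gene. Both probe sets are lower in mutants for Ntng1 and Epha10, both show control array 1 above all other arrays for Unc5d, and those of Ephb1 run in opposite directions.

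The remaining Eph receptors did not pass. Epha4, which binds ephrins of both classes and is a prominent Eph receptor of the hippocampus, had 12.16, 12.14 and 12.09 in mutants and 12.45, 12.2 and 12.07 in controls (change -0.11, 95% interval -0.32 to 0.10). Epha5 had a difference of -0.20 (-0.42 to 0.03), Epha7 by -0.09 (-0.27 to 0.09) and Ephb3 by -0.10 (-0.36 to 0.15). The changes of Epha1, Epha2, Epha8 and Ephb4 lay between -0.02 and 0.01. Over all families, 21 of the 22 members with an unadjusted p over 0.05 had 95% intervals within -0.42 and 0.24, and the exception was Unc5d.

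A match to TGACCA, the motif known for BCL11A, the paralogue of Bcl11b, was found in the windows of Epha10 and Epha6, shown here because these were the called members that hold it. TGACCA and its reverse complement TGGTCA were searched on the strand of the gene, matches are in capitals, and neither overlaps with CANNTG, the E-box letters. TGGGC, which the study names as a putative site of Bcl11b itself, was not searched. Epha10 lies on the plus strand at chr4:124881535-124881834 and Epha6 on the minus strand at chr16:60605482-60605781 (RefSeq, GRCm38.p6).
Epha10: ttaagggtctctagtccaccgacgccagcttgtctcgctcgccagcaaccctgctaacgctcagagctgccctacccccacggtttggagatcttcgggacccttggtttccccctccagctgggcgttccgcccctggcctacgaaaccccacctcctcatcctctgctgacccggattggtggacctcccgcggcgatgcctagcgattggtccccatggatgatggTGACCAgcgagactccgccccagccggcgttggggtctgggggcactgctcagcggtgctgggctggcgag
Epha6: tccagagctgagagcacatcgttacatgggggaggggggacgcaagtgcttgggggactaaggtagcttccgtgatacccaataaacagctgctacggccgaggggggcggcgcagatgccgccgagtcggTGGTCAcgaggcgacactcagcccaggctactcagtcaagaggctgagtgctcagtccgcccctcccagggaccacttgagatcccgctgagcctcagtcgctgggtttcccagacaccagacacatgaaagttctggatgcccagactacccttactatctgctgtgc
The first base of the match stood at position -21 from the start in Epha10 and at -119 in Epha6, and their changes were of opposite sign. Epha4, which did not pass, holds the third match at -86. Together 3 of 35 members with a window held the letters (8.6%), against 2495 of 17491 protein-coding genes (14.3%). The E-box letters CANNTG were in 15 of the 35 members (42.9%), against 72.1% of protein-coding genes. Dcc, Slit1, Unc5d, Ntn1, Efnb3 and Rgma had no entry.

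By role, the 18 ligands (RGMs included) gave 2 higher and 4 lower genes and the 23 receptors gave 6 higher and 3 lower. That was 33.3% of the ligands and 39.1% of the receptors, against 15.2% of all genes and 25% of those at or above the median level. Each pairing held genes that did not move together. Both DCC family receptors were higher while 2 of 4 UNC5 receptors were lower, 1 of 4 Robos was higher while 1 of 3 Slits was lower, and 2 of 9 EphA receptors were higher while 1 was lower. The shares of the Robos (25%) and the Slits (33.3%) were near the 25% of all genes at or above the median level. These are counts of single calls, and no difference between subfamilies was tested.

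**Figure D4:**
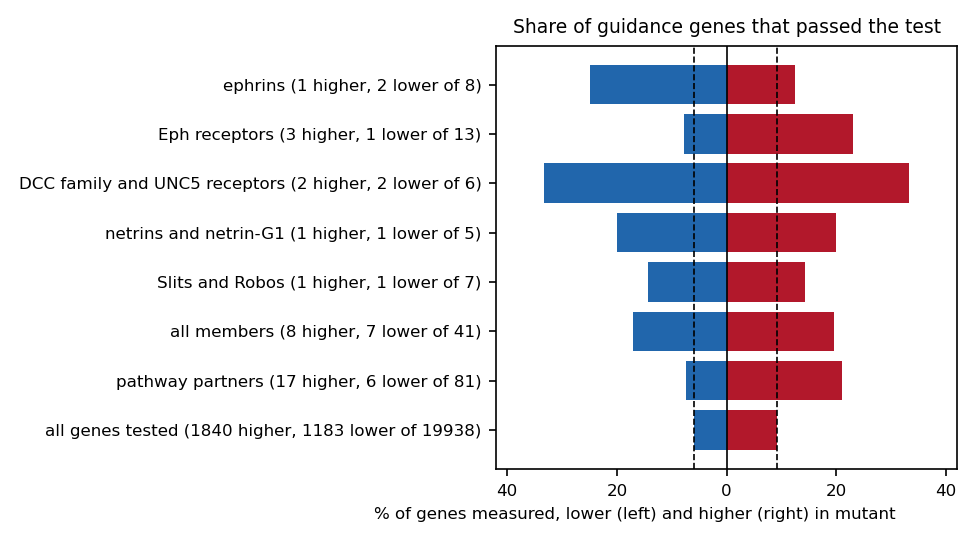
Share of genes that passed the test at an adjusted p of 0.05, by family, as a percent of those measured. Genes lower in the mutant are to the left and genes higher to the right of 0. The RGMs, of which 0 of 2 passed, have no bar of their own. Dashed lines mark the shares over all genes tested (5.93% lower, 9.23% higher). Bars of the families rest on 5 to 13 genes each, so that 1 gene moves a bar by a wide margin, and the members as a whole reached 17.1% lower and 19.5% higher.

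Genes that act with these receptors were read next, from lists of 81 measured partners (Ptk2 and Pak1 were not analysed here). Higher levels were found for 17 and lower levels for 6 (28.4% in all, against 15.2% of all genes), and 58 did not pass. These lists too were chosen with earlier results of these data known, so the shares are a description. At or above the median level 20 of 69 partners passed (29%), against 25% of all genes at that level, so the share of the brighter partners was near that of all brighter genes. The median change was 0.04 over the partners, against -0.0027 over all genes.

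Of 28 partners of Ephs and ephrins, 5 were higher and 3 were lower (28.6% in all, against 15.2% of all genes and 25% of those at or above the median level). Chn2, which codes for beta-chimaerin, a protein that switches off the GTPase Rac, was lower, with a change of -1.31 ± 0.08 (7.77 ± 0.14 in mutants and 9.08 ± 0.11 in controls, SD; adjusted p = 3.05e-05), the largest change of any member or partner other than Ntn5. Grip1, a PDZ scaffold that binds B-class ephrins, was higher (8.45 ± 0.05 in mutants and 7.88 ± 0.12 in controls; change 0.56, adjusted p = 9.75e-04). Pdzrn3, a ubiquitin ligase with PDZ domains, was higher by 0.78 (adjusted p = 0.00157) and Inppl1, the lipid phosphatase SHIP2, by 0.54 (adjusted p = 0.00171).

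Of 24 partners of netrin, DCC and UNC5, 4 were higher and 2 were lower (25% in all, the same share as of all genes at or above the median level, against 15.2% of all genes). Dapk1, a death-associated kinase, was higher by 0.40 (adjusted p = 0.00830), Prkca, a protein kinase C, by 0.39 (adjusted p = 0.0129) and Ablim1, an actin-binding protein, by 0.28 (adjusted p = 0.0201). Flrt2, a membrane protein whose shed ectodomain binds Unc5d, had 9.31 ± 0.13 in mutants and 9.67 ± 0.11 in controls (change -0.36, adjusted p = 0.0204). Of the 3 netrin-G partners only Lrrc4b, which codes for the postsynaptic adhesion protein NGL-3, was higher (0.21, adjusted p = 0.0366). NGL-3 is not the partner of netrin-G1, and Lrrc4c, which codes for NGL-1, had a difference of 0.17 and did not pass (adjusted p = 0.130).

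Of 18 partners of Slits and Robos, 6 were higher and 0 were lower by limma, with 3 lower at an unadjusted p of 0.05 by limma and 1 by the methods' test. The 33.3% that passed stand against 15.2% of all genes and 25% of those at or above the median level. No difference between the lists of partners was tested. Sdc3, a heparan sulfate proteoglycan, had 10.01 ± 0.02 in mutants and 9.14 ± 0.16 in controls (change 0.87, adjusted p = 1.78e-04). Ext1, an enzyme that builds heparan sulfate, was higher by 0.60 (adjusted p = 1.77e-04), Srgap2, a GTPase-activating protein that binds Robo1, by 0.67 (adjusted p = 0.00113), and Nell1, a secreted relative of the Robo3 ligand NELL2, by 0.65 (adjusted p = 0.00845). Of 8 partners of neogenin and the RGMs 25% passed. Bmp6, a ligand of the BMP family, was higher by 0.45 (adjusted p = 0.0154) and Rnd1, a small GTPase, was lower (-0.24, adjusted p = 0.0436).

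Markers of other cells in or next to the cut layer passed in part. The share that passed was 20% each for astrocytes, oligodendrocytes, interneurons and mossy cells, 10% for microglia, 28.6% for pyramidal cells and 50% for immature neurons. Of all genes 15.2% passed, and 25% of those at or above the median level. The lists are short, so shares near these are not read as a result about a cell type. Of 4 markers of immature neurons, Dcx (1.07) and Sox11 (0.46) were higher, while Eomes (-0.05) and Igfbpl1 (0.06) did not pass. The mean level of the list was 7.98 to 8.21 in mutants and 7.58 to 7.89 in controls, with Dcx the largest change in it. Of 10 astrocyte markers 2 were higher (8.92 to 9.13 in mutants and 8.69 to 8.99 in controls), of 10 oligodendrocyte markers 2 were lower (7.6 to 7.78 in mutants and 7.95 to 8.08 in controls), and of 7 pyramidal cell markers 2 were lower (6.01 to 6.18 in mutants and 6.29 to 6.33 in controls). Among the oligodendrocyte markers Ermn stood apart with -1.71 and a range of 1.35 within the controls, while the other 9 lay between -0.34 and 0.09. Among the pyramidal cell markers Fibcd1 stood apart with -0.94, while the others lay between -0.40 and 0.05. All 10 microglia markers had negative differences (median -0.25, from -0.35 to -0.06), of which 1 passed (Tmem119), and their mean level was 6.81 to 6.94 in mutants and 6.86 to 7.27 in controls. Of 5 mossy cell markers Calcrl was higher (list mean 6.13 to 6.36 in mutants and 6.04 to 6.19 in controls). Of 6 markers of oligodendrocyte precursors 0 passed by limma and 0 had an unadjusted p under 0.05 (6.59 to 6.83 in mutants and 6.59 to 6.78 in controls). Of 10 interneuron markers 2 were lower, while the mean level of 7.95 to 8.07 in mutants lay within the 7.91 to 8.2 of controls. The part of these cells in the changes of the guidance genes was not tested.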

How the data were processed

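Granule cell layers of 3 mutant and 3 control DG were measured on 1-colour Affymetrix arrays. The deposited log2 values come from RMA, run by the authors in Affymetrix Expression Console as the submitters' processing notes name it (versions not given), which corrects background, quantile-normalizes the arrays and summarises each probe set. All 6 value columns were used.

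Of 35556 probe sets, the platform annotation names 1 gene for 21789 and several for 1621, and does not name 12146. The probe set with the highest mean was used for the 999 genes with several, which left 19938 genes, 19856 of them matched to RefSeq by Entrez number. No filter on level was applied. The groups were set against each other in limma 3.58.1 (R 4.3.3; lmFit, then eBayes, without covariates), and p-values were adjusted over all genes by Benjamini-Hochberg with a threshold of 0.05. An unpaired, two-sided Student's test with equal variances, which the study's methods name for comparisons of groups in general, was run as an alternative with and without adjustment and is called the methods' test. Whether it was used on the arrays is not stated. An exact permutation test of 3 against 3 cannot go below p = 0.1 and was not used. Precision is limited by having 3 arrays a group.

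The members and lists were chosen with earlier results of these data known. Values by array are given for members with an adjusted or unadjusted p at or under 0.05, and up to 4 partners of each list with the smallest p are named among those that passed. Added after their values had been seen were Lrrc4c, Prox1, C1ql2, Dsp, Fibcd1, Ermn, Tmem119, Calcrl, the array values of Unc5d and Epha4, and the markers of vessels and immature neurons. Promoter windows are RefSeq sequences of GRCm38.p6. What the title numbers stand for is not stated, and the main test did not treat them as pairs. The deviations of same-numbered arrays had correlations of 0.16, -0.033 and 0.12, which do not settle whether they share a batch.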

Additional observations from a re-analysis of the deposited data

How the results depend on the processing

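Dcc, Neo1, Ntn5, Ntng1 and Slit1 kept their direction and passed under all 17 alternatives run for each of them, and Ntng1 also on its other probe set. Efna1, Epha3 and Robo1 lost the call only under the methods' test with Benjamini-Hochberg adjustment, which left 4 members higher and 2 lower (8 and 7 unadjusted). The calls of Epha6 (lost under 9), Unc5a (7), Efnb1 and Efnb2 (6 each) were the least stable. At a fold of at least 1.5, 5 members were higher and 3 lower. Without 1 array there were 6 to 11 members higher and 5 to 7 lower. Unc5d ranged from -0.24 to 0.39 when 1 array was left out, with the value of 0.39 without control array 1, and Ephb1 was at -0.18 on its other probe set. With a replicate block in limma 9 members were higher and 7 lower, and 14 of the 15 calls remained (Epha6 was lost). Efna5 (adjusted p = 0.0186) and Ephb6 (adjusted p = 0.0418) passed as well. The title numbers are not known to pair the samples. Of the 6 arrays 4 had their best match in the same-numbered one, which with 3 arrays a group does not settle the pairing. Efna5 also passed with array weights, among genes at or above the median level and without mutant array 3.

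Over all genes, the higher ones numbered 694 under the methods' test with adjustment, 3156 with array weights, 1018 at an adjusted p of 0.01, 463 at the fold limit and 1206 to 2756 without 1 array. Lower genes were 447, 2371, 536 and 246 under the same settings, 678 to 1731 without 1 array, 1995 by the methods' test unadjusted and 1800 after centring arrays on their medians. For the partners, 4, 26, 9 and 5 were higher and 2, 10, 1 and 1 lower under those first settings, with 10 to 25 higher and 2 to 6 lower without 1 array. The cause of these shifts was not tested. No array carries a measure of background, so how near to it the dim members lie is unknown.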
